A study of Mus musculus with 8 samples.

Results

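The genes described here make, store and mark serotonin in the gut: Tph1, Ddc, Gch1, Slc18a1, Slc18a2, Lmx1a, Fev, Tac1, Trpa1 and Hdc. They were chosen by symbol: a probe belonged to the set where the gene name in the scanner file equalled one of these 10 symbols, which took 13 of 55681 probes and 10 of 36083 gene names on the array. The study measured total RNA of mouse small intestine at E18.5 (embryonic day) on 8 single-colour Agilent arrays, to find genes that depend on Rfx6, a transcription factor of endocrine cells. The control group was 4 wild-type samples (Rfx6+/+). The knockout group was 4 samples homozygous for a deleted Rfx6 allele (Rfx6-/-), made by crossing mice with a floxed Rfx6 allele to CMV-Cre mice and then intercrossing the heterozygotes. CMV-Cre deletes broadly, so Rfx6 was removed from the whole animal and not from the gut alone. Neither the strain background nor the sex of the embryos, nor whether samples shared a litter, is given in the labels used here, which number each sample separately, so p-values measure the spread between these samples.

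Enterochromaffin cells are endocrine cells of the gut lining and the main source of serotonin in the body. TPH1 hydroxylates tryptophan with tetrahydrobiopterin as its cofactor, DDC removes the carboxyl group to give serotonin, and the vesicular monoamine transporters load it into granules. Many of these cells also contain substance P, made from Tac1, and sense irritants through the cation channel TRPA1; Hdc makes histamine, which in the gut is a product of mast cells and of gastric enterochromaffin-like cells.

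Each value on the array rests on a probe of 60 bases. The first 30 bases of the probes behind Tph1, of the rate-limiting enzyme, and of the 4 genes whose groups did not overlap show which stretch of each transcript was read, in lower case throughout because no part of them is singled out.
Tph1: tacttctgttttgtcttctggaacctgctg
Gch1: cgtacattccagtttcagttggtacacttg
Lmx1a: caaacagagatccttaattctactctctaa
Tac1: gtttcaatgtaattctctggtcttcagtca
Trpa1: gcagaaattcactgttccttcctcaaattt
On mm9, the build of the files, the whole probes lie at chr7:53902553-53902612 on the minus strand for Tph1, chr14:47775348-47775407 on the minus strand for Gch1, chr1:169778804-169778863 on the plus strand for Lmx1a, chr6:7512893-7512952 on the plus strand for Tac1 and chr1:14862782-14862841 on the minus strand for Trpa1. By the files they start at base 1960, 926, 3277, 953 and 4150 of their transcripts. Ddc, Gch1 and Slc18a2 have 2 probes each, and the others have 1.

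The 2 Slc18a2 probes overlap. Their touching ends are shown because only 1 of them was detected on all arrays; capitals mark the 13 bases that both contain.
Slc18a2, last 30 bases of the upstream probe: gatcagcaaaggcatgcCTGTTACTGCTCT
Slc18a2, first 30 bases of the downstream probe: CTGTTACTGCTCTccaaagaaaaaagaaaa
The upstream probe (chr19:59370106-59370165, plus strand) was well above background on 8 of 8 arrays and represents the gene. The downstream probe (chr19:59370153-59370212, plus strand) was well above background on 1 of 4 control and 3 of 4 knockout arrays, and did not enter the tests.

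Levels are log2 signals after background subtraction, centred on each array's 75th percentile, so a level of 0 is that percentile and 1 unit is a 2-fold step. Levels of different genes rest on different probes and are not set against each other. A difference is the knockout mean minus the control mean of these log2 levels, given with its standard error (SE) and tested with limma over 23276 genes with Benjamini-Hochberg adjustment, and a call is an adjusted p under 0.05. Of all genes tested 4.92% were called, 2.59% lower and 2.33% higher on the knockout arrays. That split moved with the scaling: 47.4% of the calls were higher as reported, 57.1% after quantile normalization, 58.4% with the percentile taken over detected probes and 68.3% after median centring. The median difference of all genes was -0.05, 60.5% of all genes had a difference below 0, and 20.5% had an unadjusted p under 0.05. The share of probes well above background ran from 57.5% to 67.1% over the arrays. One library stood apart in a hormone gene: Pyy was at 1.41 on knockout array 1, against -2.78 to -2.56 on the other knockout arrays and 0.35 to 1.38 on the controls. The results without each array are given below where they changed a call. The targeted gene does not check the labels: whether its 1 probe lies in the deleted part of Rfx6 was not examined here, and the probe was well above background on 8 of 8 arrays and differed by 0.38 (SE 0.29, limma adjusted p 0.503), with values from 0.18 to 0.58 when single arrays were left out. Groups are therefore called by their labels. In whole tissue, fewer cells of a type and less RNA per cell cannot be told apart.

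Among the 10 genes, Lmx1a and Tac1 were higher and Trpa1 was lower on the knockout arrays; the other 7, including the serotonin-making enzymes Tph1 and Ddc, did not pass the threshold. The largest difference was that of Lmx1a, a LIM homeobox transcription factor of enterochromaffin cells, at 2.24-fold. All 10 genes were well above background on 8 of 8 arrays, so none was kept through 1 group alone. The calls of 1 lower and 2 higher genes of 10 stand beside 2.59% lower and 2.33% higher over all genes. All knockout arrays lay on one side of all controls for 4 of the 10 genes, 2 lower and 2 higher; among all genes 14.6% were so separated, 9.24% lower and 5.4% higher. The median difference of the 10 was 0.19. For comparison, 8 of 10 peptide hormone genes measured on the same arrays were lower, with a median difference of -5.87; the difference between these lists was not tested.

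**Figure D1:**
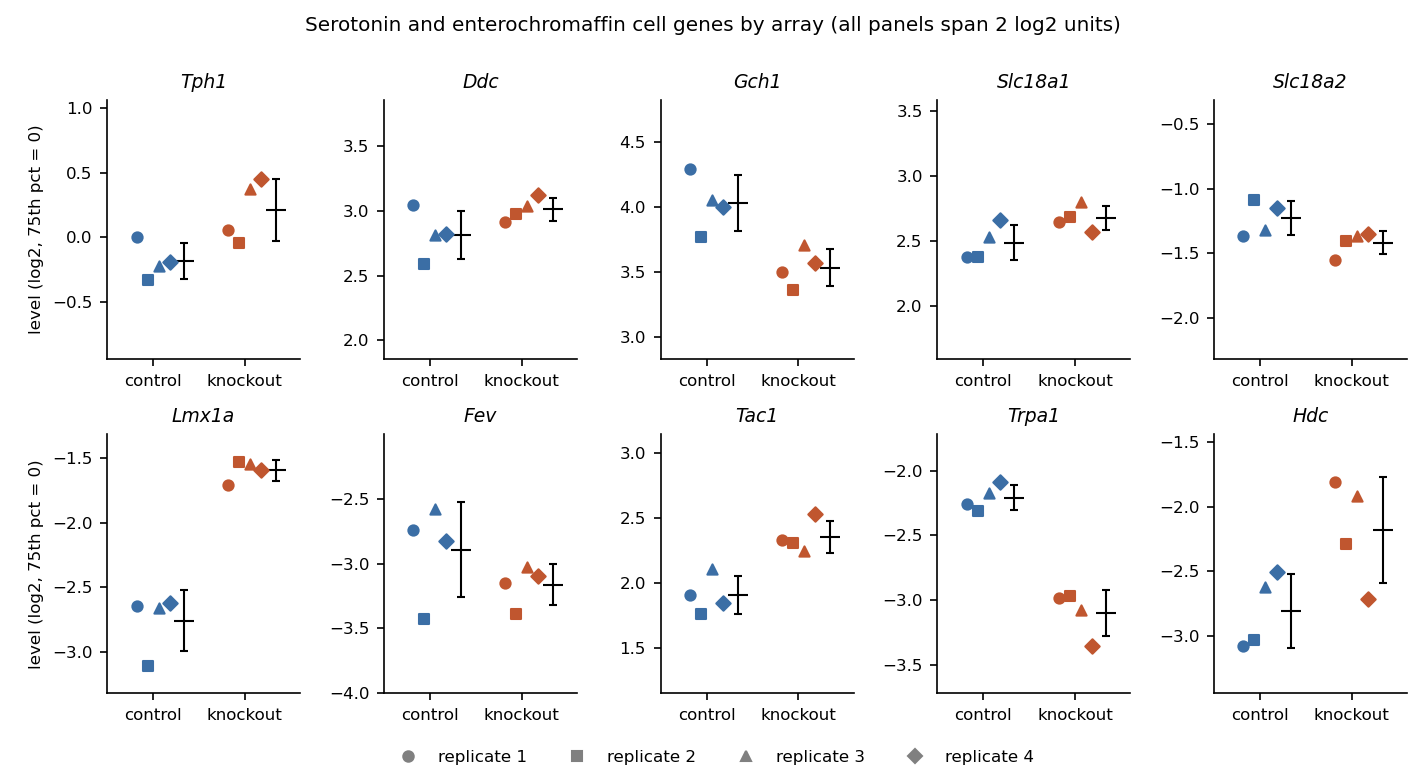
Level of each of the 10 genes (log2, with the array's 75th percentile at 0) on the 4 control and 4 Rfx6 knockout arrays; marker shape gives the replicate, and the black bar gives the group mean with its SD (n = 4). The groups stand apart for Gch1, Lmx1a, Tac1 and Trpa1, and the widest gap is that of Lmx1a, between -2.62 and -1.71.

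The enzymes come first. Tph1, whose product catalyses the rate-limiting step of serotonin synthesis, stood at 0.01, -0.33, -0.22 and -0.19 on control arrays 1 to 4 and at 0.06, -0.04, 0.37 and 0.45 on knockout arrays 1 to 4. Knockout arrays 1, 3 and 4 lay above all controls, array 1 by a narrow margin, while knockout array 2 lay below control array 1, so the groups overlapped. Control arrays averaged -0.18 ± 0.14 (SD, n = 4), and knockout arrays 0.21 ± 0.24 (SD, n = 4). Tph1 differed by 0.39 (SE 0.13, 95% interval 0.10 to 0.69), and it was not called (limma adjusted p 0.132). Under the alternatives its adjusted p ran from 0.0734 to 0.300, and it was called under none of the 20.

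Ddc, the decarboxylase that completes serotonin and also dopamine, lay between 2.59 and 3.04 on control and between 2.92 and 3.12 on knockout arrays. It differed by 0.20 with a 95% interval from -0.04 to 0.44 (limma adjusted p 0.336). That value was 0.12 without control array 2 and 0.09 with the slide row as a block. Its other probe (chr11:11776262-11776321) differed by 0.07 (SE 0.10, limma adjusted p 0.719 over all probes). That probe starts at base 320 of its transcript, and the probe reported starts at base 1956 of a different transcript record. Neither probe gave a call.

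Gch1, which makes the first intermediate of tetrahydrobiopterin, stood at 4.29, 3.77, 4.06 and 4.00 on the control arrays and at 3.50, 3.36, 3.71 and 3.57 on the knockout arrays. All knockout arrays lay below all controls. It differed by -0.50 (SE 0.12, 95% interval -0.78 to -0.22), just outside the threshold (limma adjusted p 0.0568). Its second probe (chr14:47773797-47773856) also had all knockout arrays below all controls and differed by -0.27 (SE 0.09, limma adjusted p 0.155 over all probes). The adjusted p ran from 0.0205 to 0.183 under the alternatives and passed under 4 of 20: normexp background, the authors' series matrix values, array weights, and without control array 2 (limma adjusted p 0.0294).

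The other 7 genes of tetrahydrobiopterin synthesis and recycling all had knockout-minus-control differences below 0, where 60.5% of all genes did. Limma called 0 of 7, and 3 of 7 had an unadjusted p under 0.05, beside 20.5% of all genes. Their median difference was -0.22, beside -0.05 over all genes. The difference nearest to 0 was that of Pcbd2, at -0.046. The number below 0 was not taken under other scalings. After median centring the median difference of all genes was 0.01. Spr, sepiapterin reductase, which completes the cofactor, differed by -0.32 (limma adjusted p 0.0701) with no overlap between groups. Gchfr, the regulator through which the cofactor feeds back on GCH1, differed by -0.29 (limma adjusted p 0.125), again with no overlap. Qdpr, which recycles the cofactor, differed by -0.28 (limma adjusted p 0.220), and its groups overlapped.

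The vesicular transporters did not pass the threshold. Slc18a1 encodes VMAT1, the form typical of endocrine cells; it lay between 2.37 and 2.66 on control and between 2.57 and 2.80 on knockout arrays, and differed by 0.19 with a 95% interval from -0.02 to 0.40 (limma adjusted p 0.286). Slc18a2 encodes VMAT2, the form of neurons, mast cells and gastric enterochromaffin-like cells. It lay between -1.36 and -1.09 on control and between -1.55 and -1.35 on knockout arrays, and differed by -0.19 with a 95% interval from -0.39 to 0.02 (limma adjusted p 0.287). The difference was -0.12 after median centring. The downstream probe, which was not tested, differed the other way, by 0.41, and its groups overlapped. It was well above background on 1 of 4 control and 3 of 4 knockout arrays.

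**Figure D2:**
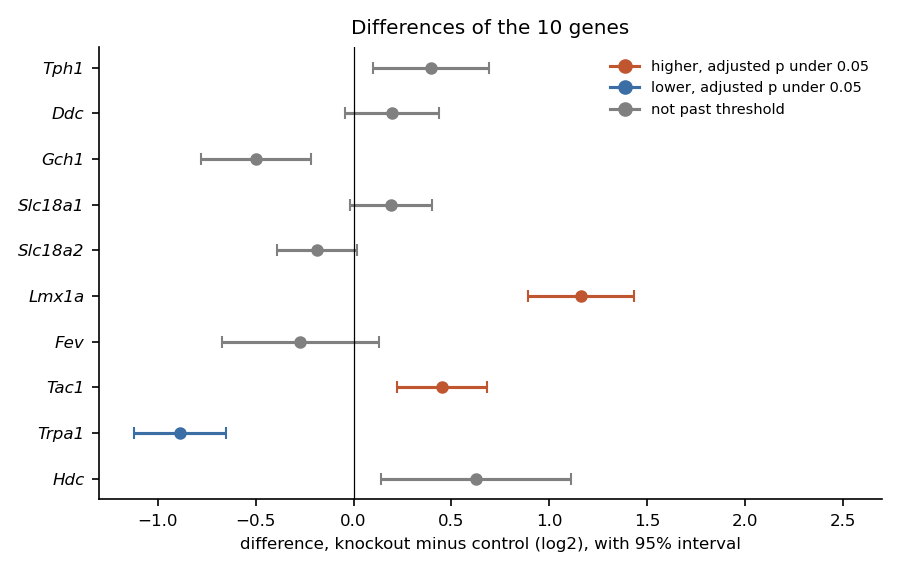
Difference between Rfx6 knockout and control arrays for each of the 10 genes in log2 units, with its 95% interval from limma (n = 4 against 4). Lmx1a (1.16) and Tac1 (0.45) were called higher and Trpa1 (-0.89) lower; the intervals of Tph1, Gch1 and Hdc leave out 0 but their adjusted p did not pass.

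Of the transcription factors, Lmx1a stood at -2.64, -3.11, -2.66 and -2.62 on the control arrays and at -1.71, -1.53, -1.55 and -1.59 on the knockout arrays. Every knockout array lay above every control, and control array 2 was the lowest by a clear gap. The signals behind these levels, before scaling, were 106.0, 81.1, 102.0 and 113.3 on control and 226.3, 238.5, 244.1 and 210.7 on knockout arrays. The means were -2.76 ± 0.23 (SD, n = 4) and -1.60 ± 0.08 (SD, n = 4), a difference of 1.16 (SE 0.12, 95% interval 0.89 to 1.43, limma adjusted p 0.0011). It was called under 20 of 20 alternatives, with differences from 0.75 to 1.23. The size depended on the processing, at 0.75 with normexp background and 0.81 on the series matrix values. By p Lmx1a stood at place 106 among the 23276 genes.

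Lmx1b, the paralogue that serves serotonin neurons of the brain, moved the other way. It lay between -1.40 and -1.15 on control and between -1.72 and -1.57 on knockout arrays, and differed by -0.37 (SE 0.08, limma adjusted p 0.0378). That call was lost under 15 of 20 alternatives, quantile normalization (limma adjusted p 0.0548) and median centring (limma adjusted p 0.205) among them, and its highest adjusted p was 0.205. Fev, the ETS factor known as Pet1 in serotonin neurons, lay between -3.42 and -2.58 on control and between -3.39 and -3.02 on knockout arrays. It differed by -0.27 with a 95% interval from -0.67 to 0.13 (limma adjusted p 0.428). Single arrays moved it: it was -0.45 without control array 2, the lowest control (limma adjusted p 0.0614), and -0.17 without control array 3.

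Lmx1a and Tac1 were the 2 of the 10 genes called higher, so the 250 bases before their annotated start sites are shown, from RefSeq on GRCm38.p6. Capitals mark half-sites of the X-box, the motif that RFX factors bind, searched as GTTGCC and GTTACC on both strands; the 2 words do not overlap each other.
Lmx1a, chr1:167689308-167689557, plus strand: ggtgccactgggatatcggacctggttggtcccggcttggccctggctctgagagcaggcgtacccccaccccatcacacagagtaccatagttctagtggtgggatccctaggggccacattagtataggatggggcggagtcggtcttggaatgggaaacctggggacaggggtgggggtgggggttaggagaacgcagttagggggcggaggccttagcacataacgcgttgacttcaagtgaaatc
Tac1, chr6:7554811-7555060, plus strand: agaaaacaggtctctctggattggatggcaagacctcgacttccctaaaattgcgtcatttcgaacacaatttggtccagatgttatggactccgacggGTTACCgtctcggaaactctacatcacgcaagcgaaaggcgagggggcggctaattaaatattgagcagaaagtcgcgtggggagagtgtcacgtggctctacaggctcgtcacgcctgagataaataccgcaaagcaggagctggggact
The Lmx1a window held no match and the Tac1 window held 1, with its first base at -151 from the start site. Windows were given for 8 of the 10 genes, 10 in all, and 2 of these 10 held a match, the other being a start of Ddc; of all 32851 windows of that length 15.7% did. A match is a stretch of letters and not a measured binding site.

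Tac1 encodes the precursor of substance P and neurokinin A and is made by enterochromaffin cells and by enteric neurons. It stood at 1.91, 1.76, 2.11 and 1.85 on the control arrays and at 2.33, 2.31, 2.24 and 2.53 on the knockout arrays. All knockout arrays lay above all controls. The means were 1.90 ± 0.15 (SD, n = 4) and 2.35 ± 0.13 (SD, n = 4), a difference of 0.45 or 1.37-fold (SE 0.10, limma adjusted p 0.0406). The call was lost under 10 of 20 alternatives, which include leaving out any 1 array other than control array 3; the adjusted p then ran from 0.0607 to 0.120, and with the slide row as a block it was 0.101.

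Trpa1 stood at -2.26, -2.31, -2.17 and -2.09 on the control arrays and at -2.98, -2.97, -3.08 and -3.35 on the knockout arrays. The groups did not overlap, and knockout array 4 was the lowest. The means were -2.21 ± 0.10 (SD, n = 4) and -3.10 ± 0.18 (SD, n = 4). Trpa1 fell by 0.89 on the log2 scale, 1.85-fold (SE 0.10, limma adjusted p 0.0021). It was called under 20 of 20 alternatives with differences from -0.93 to -0.58. The size depended on the processing, at -0.58 with normexp background and -0.61 on the series matrix values. Its signals before scaling ran from 138.0 to 163.9 on control and from 62.3 to 93.6 on knockout arrays. The arrays lay in 2 rows of 1 slide, by their file labels, with 1 control in the first and 1 knockout in the second. Within the first and the second row Trpa1 differed by -0.87 and -0.79, Lmx1a by 1.08 and 1.08, and Tac1 by 0.46 and 0.43.

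Hdc, histidine decarboxylase, stood at -3.07, -3.03, -2.62 and -2.50 on the control arrays and at -1.81, -2.29, -1.92 and -2.72 on the knockout arrays. Knockout array 4 lay among the controls, and the other 3 lay above them. It differed by 0.63 (SE 0.21, 95% interval 0.14 to 1.11), and was not called (limma adjusted p 0.145). The difference was 0.37 with normexp background and 0.41 on the series matrix values. It was 0.84 with the slide row as a block (limma adjusted p 0.0828) and 0.80 without knockout array 4 (limma adjusted p 0.0537). Mast cells contain Hdc and in the mouse also Tph1 and Slc18a2, so their markers were read on the same arrays. Of 10 mast cell markers 7 were detected, among them the proteases Cpa3, Mcpt2 and Tpsb2, while Tpsab1, Ms4a2 and Fcer1a were well above background on no array. All 7 had differences above 0, as 39.5% of all genes did, with a median difference of 0.50, and 1 was called: Kit, a receptor also carried by the pacemaker cells of the gut wall, differed by 0.40 (limma adjusted p 0.0476, lost under 12 of 20 alternatives). The mean level of the 7 was -2.79, -2.72, -2.59 and -1.88 on the control arrays and -1.90, -1.98, -1.80 and -2.40 on the knockout arrays. Knockout array 4 was thus the lowest knockout array for Hdc and for the mast cell markers alike. Control array 4 was the highest control for both, at -2.50 for Hdc and -1.88 for the markers. Both values lay within the range of the knockout arrays. The part of mast cells in the Hdc values was not tested.

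**Figure D3:**
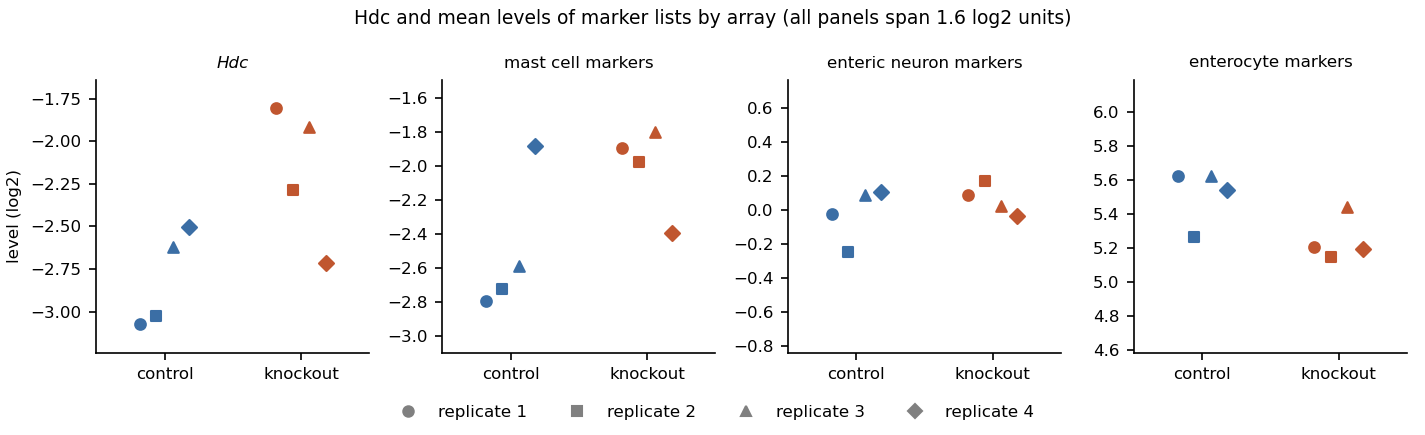
Level of Hdc and mean levels of the tested markers of mast cells (7 genes), enteric neurons (9) and enterocytes (8) on each array, in log2 units. Marker shape gives the replicate. Hdc and the mast cell markers are both lowest among the knockout arrays on array 4, at -2.72 and -2.40, while the enteric neuron markers lie between -0.25 and 0.17 on all arrays.

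Markers of other cells were read beside the 10 genes. Of 9 enteric neuron markers tested, including Elavl4, Uchl1 and Ret, 0 were called by limma and 0 had an unadjusted p under 0.05. Their median difference was 0.06. The part of neurons in the Tac1 values was not tested. Enterocyte markers were bright on all arrays, as the tissue label says, and 3 of 8 were called lower: Lct, the lactase of the brush border, by -0.75, Fabp1, a fatty acid binding protein, by -0.65 and Apoa4, an apolipoprotein, by -0.61 (limma adjusted p 0.0297, 0.00787 and 0.0222). Gastric epithelium markers were higher in 8 of 11 cases. Gkn2, Atp4a and Cblif were well above background on no control array, and with these 3 at their lower bounds the median difference of the list was 4.57. Their mean level ran from -4.69 to -3.14 on control and from 1.30 to 2.07 on knockout arrays. The stomach lining has serotonin and histamine cells of its own, and the part of such cells in the values of the 10 genes was not tested. Exocrine pancreas markers differed by a median of -0.71 with 0 of 5 called, and 2 platelet markers by 0.17 with 0 called.

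Other genes known from enterochromaffin cells gave 2 lower and 1 higher call among 11 tested, where 4.92% of all genes were called. Their median difference was 0.17. Of the called genes, Slc38a11 and Ucn3 entered the test through 1 group alone, and Lmx1b lost its call under 15 of 20 alternatives. Chga and Chgb, the chromogranins of their granules, differed by 0.26 (limma adjusted p 0.561) and 0.17 (limma adjusted p 0.616). Without control array 2, where both were lowest, they differed by 0.011 and -0.0091. Reg4, a secreted lectin of these cells, differed by 0.32 (limma adjusted p 0.0746), Piezo2, their mechanosensitive channel, by 0.04 and Adra2a, an adrenergic receptor, by -0.34 (limma adjusted p 0.432). Slc38a11, an amino acid transporter family member, stood at -3.41, -3.89, -3.31 and -3.37 on the control arrays and at -1.88, -2.19, -2.09 and -2.41 on the knockout arrays. It differed by 1.36 (SE 0.16, limma adjusted p 0.0019), and was well above background on 3 of 4 control arrays. Its size depended on the processing, at 0.78 with the mean of its probes, 0.69 with normexp background and 0.72 on the series matrix values. Ucn3, which encodes the peptide urocortin 3, was well above background on 4 control arrays, from -3.53 to -2.93, and on no knockout array. The limma adjusted p of 0.0013 belongs to the fitted difference of -2.15, which uses knockout signals not well above background. As a bound, Ucn3 was at least 3.27-fold lower, and this bound was not itself tested. It sets the mean of the controls against the higher, on each knockout array, of its own signal and the dimmest signal well above background. This bound holds for the background-subtracted levels; Ucn3 differed by -0.73 with normexp background and by -0.60 on the series matrix values.

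**Figure D4:**
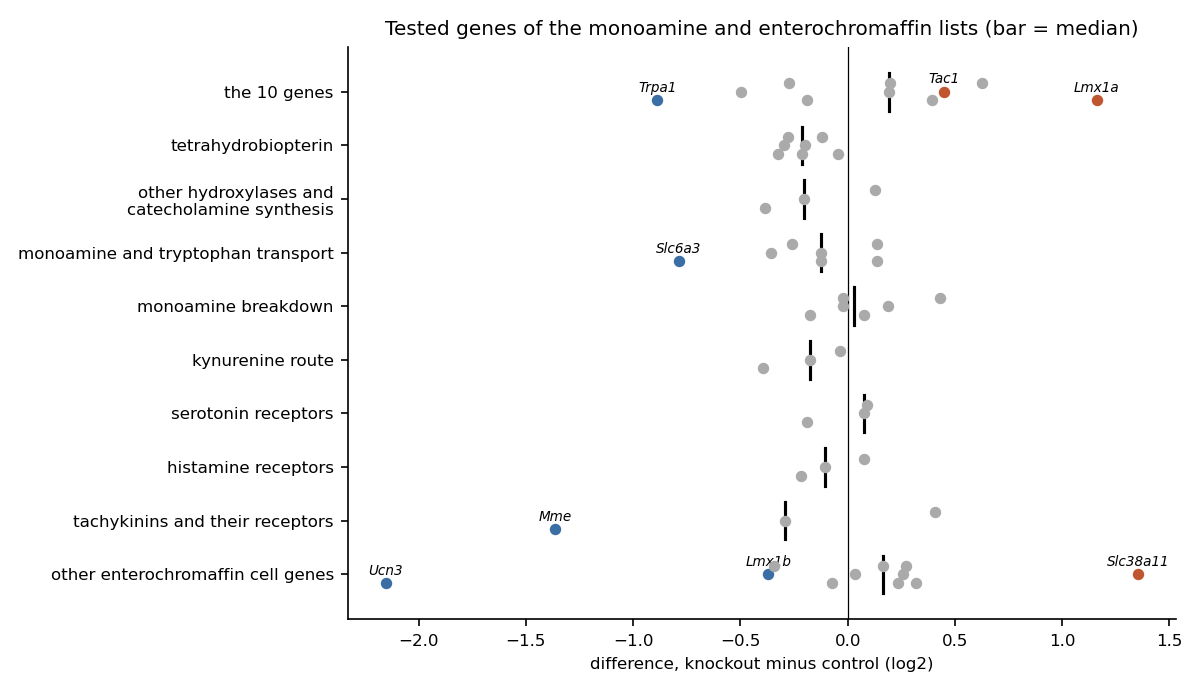
Difference between Rfx6 knockout and control arrays for each tested gene of the monoamine, receptor and enterochromaffin lists in log2 units; each point is a gene, black bars are list medians, and named points were called (red higher, blue lower). Called genes are few in each list; Ucn3 and Mme lie farthest to the lower side and Slc38a11 and Lmx1a to the higher side, and Ucn3 was well above background on no knockout array.

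The steps around serotonin are set beside the 4.92% of all genes called. Tph2, the hydroxylase of neurons, was well above background on no array. Th, tyrosine hydroxylase, differed by -0.21 (limma adjusted p 0.150). Among transporters of monoamines and tryptophan 1 of 7 tested was called: Slc6a3, the dopamine transporter, averaged 1.30 ± 0.22 (SD, n = 4) in controls against 0.51 ± 0.19 (SD, n = 4) in knockouts, with no overlap, and differed by -0.79 (SE 0.13, limma adjusted p 0.0120). Slc6a4, the serotonin transporter that clears serotonin into enterocytes, platelets and neurons, stood at 0.32, 0.23, 0.17 and 0.27 on the control arrays and at -0.16, -0.24, 0.11 and -0.15 on the knockout arrays. Its groups did not overlap, and it differed by -0.36 without passing (limma adjusted p 0.0655). Slc6a2, Slc22a2 and Slc22a3 were well above background on no array.

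Genes of monoamine breakdown gave 0 of 6 calls by limma and 2 of 6 at an unadjusted p under 0.05 (20.5% over all genes), with a median difference of 0.03; Maoa, which degrades serotonin, differed by 0.19 (limma adjusted p 0.423), and Aoc1, which degrades histamine in the gut, by 0.43 with no overlap (limma adjusted p 0.135). The kynurenine route, which competes for tryptophan, gave 0 of 3, with 1 at an unadjusted p under 0.05 (20.5% over all genes), and Ido1 and Ido2 were well above background on no array. Most serotonin receptors were dim: 8 of 14 (Htr1a, Htr1b, Htr1d, Htr1f, Htr2c, Htr5a, Htr5b and Htr7) were well above background on no array, and of the 3 tested, Htr2a, Htr2b and Htr3a, 0 were called and 0 had an unadjusted p under 0.05. Histamine receptors gave 0 of 3 calls, none with an unadjusted p under 0.05, and Hrh2 was well above background on no array. For Tac4 and Tacr3 the same held. Tacr2, the neurokinin A receptor of gut muscle, differed by -0.29 (limma adjusted p 0.279). Mme, neprilysin, a peptidase that cleaves substance P among many other peptides, stood at 1.97, 1.94, 1.81 and 1.93 on the control arrays and at 0.77, 0.18, 0.90 and 0.34 on the knockout arrays. It fell by 1.36 on the log2 scale (SE 0.16, limma adjusted p 0.0020), and all knockout arrays lay below all controls.

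Regulators of endocrine differentiation were read on the same arrays. Neurog3, which starts the endocrine lineage, differed by 0.46 with no overlap (limma adjusted p 0.0820), and Pax4, a factor of enterochromaffin and somatostatin lineages, by 0.24 (limma adjusted p 0.276). Nkx2-2 and Insm1, used by many endocrine cells, differed by -0.02 (limma adjusted p 0.950) and -0.13 (limma adjusted p 0.450).

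How far the 10 genes varied together among arrays was not tested. Control array 2 was the lowest control for 7 of the 10 genes, and the mean level of the 10 there was -0.28, against -0.05, -0.01 and -0.01 on the other controls. On the same array Chga stood at 2.34, against 3.23 to 3.46 on the other controls, and Chgb at 4.35, against 4.92 to 5.14. On the knockout arrays the mean of the 10 was 0.03, -0.03, 0.12 and 0.01. No knockout array was the lowest of its group for more than 3 of the 10 genes. Without control array 2, Lmx1a differed by 1.04 and Trpa1 by -0.92, both still called, Tac1 by 0.40 and was not called (limma adjusted p 0.0690), and Gch1 by -0.58 and was called.

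Genes with profiles most like those of Tph1, Lmx1a and Trpa1 were sought over the 8 arrays as those with the smallest root mean square difference between levels centred on their own mean. This is a description over 8 arrays that includes the difference between groups. Nearest to Tph1 were Hsd17b2, a steroid dehydrogenase, at 0.07, a probe with no gene name, at 0.09, and Ang, angiogenin, at 0.09; none of the 3 was called, with differences of 0.45, 0.37 and 0.43. Nearest to Lmx1a were Pla1a, a phospholipase, at 0.12, Fgb, the fibrinogen beta chain, at 0.13, and Urah, an enzyme of urate breakdown, at 0.13, with differences of 1.11, 1.20 and 1.07. Nearest to Trpa1 were Ltb4r1, a leukotriene B4 receptor, at 0.06, Slc30a10, a manganese exporter, at 0.09, and D130043K22Rik at 0.10; the first 2 of these differed by -0.89 and -0.78.

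**Figure D5:**
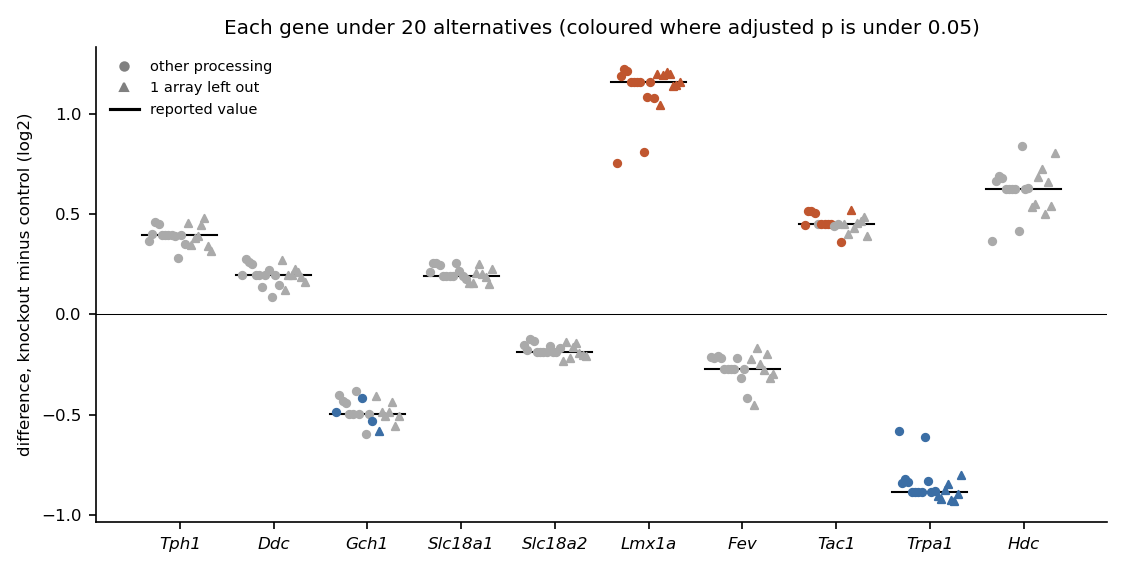
Difference between Rfx6 knockout and control arrays for each of the 10 genes under 20 alternatives (circles, other processing; triangles, 1 array left out), in log2 units, with the reported value as a black line; coloured points have an adjusted p under 0.05. Lmx1a and Trpa1 are coloured under all 20 alternatives, Tac1 under 10 and Gch1 under 4, and no gene crosses 0.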

How the data were processed

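Intensities are the authors' deposited scanner values; per the file headers, Agilent Feature Extraction 10.10.1.1 subtracted background within each array and scaled nothing between arrays. Per the labels' protocols, 100 ng of total RNA was amplified and labelled with cyanine 3. The 0 or 1 flags for detection and outliers are also the authors'. Control spots (3671 of 62976) and outlier spots (153 to 355 per array) were left out, spots of a probe averaged, and log2 levels centred on each array's 75th percentile. No gene spot was saturated. Probes entered the test where all 4 arrays of either group read well above background, and the brightest probe represented a gene. The comparison used limma 3.58.1 (lmFit and eBayes, R 4.3.3) with a two-sided test and no covariates. The fit was tested on simulated data in which genes varied independently and 200 were changed. It called 78% of the 2-fold and 99% of the 4-fold changes, and 7.8% of its calls were false. Changes under 2-fold were not simulated. The number of arrays limits the precision. Symbols were updated through a GRCm38.p6 gene table for names only.

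The alternatives were background by normexp (offset 50), centring by quantile, by median or by a percentile over detected probes, no filter or a filter on all 8 arrays, averaged probes or each probe on its own, the authors' series matrix values (quantile-normalized spot medians on a linear scale, by comparison with the scanner values), slide row or replicate number as a block, array weights, and leaving out each array. Named are the 10 genes, Rfx6, called or undetected genes of the lists (a regulator gene is not reported here), called markers, and the 3 nearest profiles of Tph1, Lmx1a and Trpa1; other genes, such as those just outside the threshold, were named after their values were seen. The members and lists were chosen with earlier results of these data known.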

Additional observations from a re-analysis of the deposited data

Results flagged for a closer look

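Single arrays stood far from the other 3 of their group in 4 of 50 groups of 4 values, taken over the 10 genes, Rfx6 and the called genes of the lists; chance gives about 1 in 20, and genes on 1 array are not independent. Lmx1a was at -3.11 on control array 2, where the other controls lay between -2.66 and -2.62. Without that array Lmx1a differed by 1.04. Sst was at 1.75 on the same array, against 1.98 to 2.03. Slc6a3 was at 0.23 on knockout array 2, against 0.58 to 0.62. Rfx6 was at -3.74 on control array 4, against -2.98 to -2.91.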

How the results depend on the processing

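Of 200 values of the 10 genes under 20 alternatives, 186 kept their direction and side of the threshold, 10 lost a call (all Tac1), 4 gained one (all Gch1) and 0 reversed. With no filter, the filter on all 8 arrays and the replicate block the differences of the 10 genes stayed as reported. The same held with each probe tested, where the brightest probe still stood for each of the 10 genes. Under these alternatives only the p-values could change, and no direction could reverse. Among the 10 genes, 2 were called lower with normexp background, the series matrix values and array weights, and 1 higher with no filter, the slide row block and the replicate block. Without single arrays both counts lay between 1 and 2. Over all genes, 602 were lower and 543 higher; median centring gave 253 lower, no filter 203 lower and 298 higher, array weights 1091 lower, and single arrays left out 217 to 587 lower and 338 to 510 higher. The lower count fell beyond 1.5 times without control arrays 1 (251), 3 (315) and 4 (344) and knockout arrays 1 (217) and 2 (232), and the higher count without control array 1 (355) and knockout arrays 1 (338) and 2 (348). The filter on all 8 arrays left 8 of 14 called list genes, since genes undetected in 1 group drop out, and leaving out 1 array gave 12 to 16. The cause of the other changes was not tested. Same-numbered replicates did not deviate together (correlations of -0.07, -0.17, 0.07 and -0.41), which cannot show whether they shared a litter. With the replicate block 148 genes were lower and 268 higher, and the limma adjusted p of Tac1 was 0.172. Rfx6, Slc6a3 and Mme kept their side of the threshold under 20 alternatives and Slc38a11 and Ucn3 under the 19 that tested them. Chgb, at 0.17 as reported, ran from -0.0091 (without control array 2) to 0.25 when single arrays were left out.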
